A study of Homo sapiens with 6 samples.

Results

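Glycolytic enzymes, their regulators and the genes of the cellular oxygen response were examined in Rh30 cells, an established human rhabdomyosarcoma line of the alveolar type, with a PAX3-FOXO1 fusion. A list of 39 genes was drawn up by function, and their array probes were found by the symbol in the platform annotation. Of these genes, 38 had at least 1 probe, 72 probes in all, out of 20046 genes with a named probe on the array. Carbonic anhydrase 9 (CA9) had no probe named here and was not analysed. The 3 control samples were Rh30 cells transfected with a control siRNA, and the other 3 were Rh30 cells in which an siRNA (siP/CAF) targeted P/CAF, the lysine acetyltransferase encoded by KAT2B. All 6 were taken 72 h after transfection, come from 1 line without any stated genetic change, and were each read on 1 Illumina HT-12 bead array. The labels name no separate cultures, so the p-values below reflect the spread among these 6 samples alone, and that spread may be technical. The sources used here do not give the oxygen tension or the siRNA sequences.

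Glycolysis splits glucose into pyruvate in the cytosol, and the steps of hexokinase, phosphofructokinase and pyruvate kinase set its pace. Lactate dehydrogenase turns pyruvate into lactate, whereas pyruvate dehydrogenase kinases inhibit the pyruvate dehydrogenase complex, which uses pyruvate inside the mitochondrion. The hypoxia-inducible factors (HIF) are pairs of an alpha subunit, HIF1A or EPAS1, with ARNT; in oxygenated cells the EGLN prolyl hydroxylases mark the alpha subunit and VHL has it degraded. HIF is controlled mainly through the amount of alpha protein, which mRNA arrays do not measure. When stabilised it raises many glycolytic genes and genes of angiogenesis, collagen hydroxylation and mitophagy. Tumour cells, rhabdomyosarcoma cells among them, commonly use glycolysis also when oxygen is present.

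The siRNA target was lower in every treated sample. Deposited KAT2B signals of 749, 608 and 1093 in controls stood against 178, 172 and 136 in treated samples, with no overlap, and its log2 difference was -2.77 ± 0.22 (SE). Between 20891 and 21421 of 47323 probes per array were detected. Of 11 markers of rhabdomyosarcoma and skeletal myoblasts, 10 were detected on all 6 arrays, and TFAP2B on none. Their summed signal was lower after siP/CAF, 33788 to 40199 against 40571 to 59008. Among markers of cells that a pure line should lack, PTPRC, CD3E and HBB (blood), VWF and KDR (endothelium) and EPCAM, CDH1, KRT5 and KRT19 (epithelium) were detected on no array. PECAM1, TIE1, CD14 and ELF3, from the same lists, were detected on all arrays. CDH5, the remaining endothelial marker, was detected on no control array and on 2 siP/CAF arrays (signals 57.9 to 71.8 against 91.9 to 103.5), too few to be tested. By limma, MYOG (-1.67) and PECAM1 (-0.59) fell on the log2 scale and TIE1 rose by 0.94, while no other tested marker passed. Summed marker signals overlapped between the groups for endothelium (791 to 1067 in controls, 778 to 890 after siP/CAF), blood (570 to 649 and 612 to 647) and epithelium (545 to 708 and 623 to 684). These sums took deposited signals over all probes of a list, undetected ones included. Only 1 of 8 blood and 1 of 7 epithelial probes was tested, so background makes up much of those sums. In the endothelial sum PECAM1 and TIE1 moved in opposite directions, so its overlap can hide changes. The part of such cells in the results below was not tested.

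Of the 38 genes 1 passed the test, and no glycolytic enzyme did. Where a gene had several tested probes, the one with the highest mean signal stood for it, and a gene passed when its limma p-value, adjusted over all 21232 tested probes by Benjamini-Hochberg, lay under 0.05. By this test 1 gene fell, the collagen prolyl hydroxylase P4HA2, and none rose. Over all 11806 tested genes 5.37% passed (2.28% higher, 3.09% lower). Without adjustment 8 of the 38 had a limma p under 0.05 (21.1%), 6 higher and 2 lower, against 20.6% of all genes (9.05% higher, 11.5% lower). The groups did not overlap for 10 of the 38 (26.3%), 7 higher and 3 lower, against 27.7% of all genes (12.6% higher, 15.1% lower). These totals were close to those of all genes. Higher differences outnumbered lower ones in these small member counts and not among all genes, which was not tested. By array, the median deviation of the members from their means was -0.03, -0.06 and 0.03 in controls. After siP/CAF it was 0.05, 0.08 and -0.06, so the groups overlapped. The median log2 difference, siP/CAF minus control, was 0.03 over the members and -0.01 over all genes. Counted as probes, 3 of 61 tested passed, against 4.58% of all probes: both tested probes of P4HA2 (lower) and the dimmer probe of BNIP3L (higher). The arrays hold bulk RNA, so fewer cells with a transcript and less of it per cell cannot be told apart.

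The 95% intervals show what 3 arrays per group could resolve. Because the spread among these arrays may be technical, they do not bound what separate cultures could show. For 22 of the 38 genes the 95% interval of the difference lay within a 1.5-fold change either way, and for the other 16 it reached beyond. Standard errors ran from 0.14 to 0.27 on the log2 scale with a median of 0.16. All but 1 gene were detected on all 6 arrays; the exception was PDK1.

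**Figure D1:**
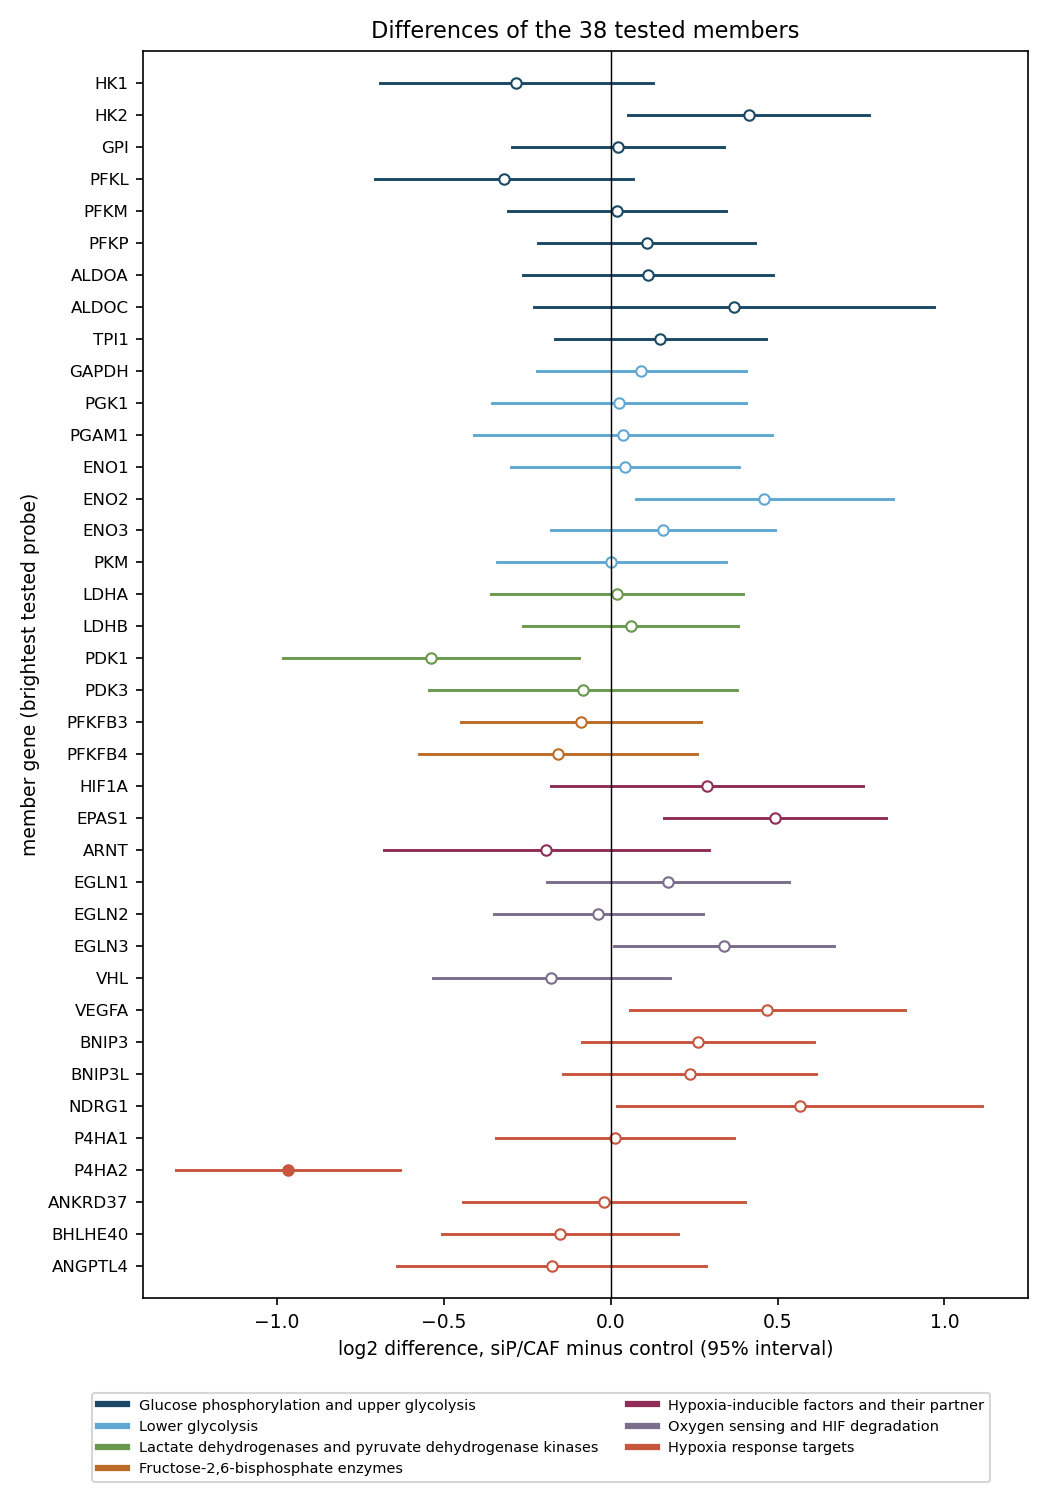
Log2 difference between siP/CAF and control arrays for the 38 tested members, by the brightest tested probe, ordered and coloured by role. Points are the limma estimates over 3 arrays per group, lines their 95% intervals, and a filled point passed the test; P4HA2, at -0.97, is the filled one, while PKM, LDHA, P4HA1 and GPI sit near 0.

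P4HA2 encodes an alpha subunit of collagen prolyl 4-hydroxylase, an enzyme of the endoplasmic reticulum that hydroxylates prolines so that collagen can fold, and it is a reported HIF target. Its brightest probe gave signals of 539, 463 and 497 in control samples against 268, 285 and 262 in treated ones. Normalized log2 levels were 8.70, 8.93 and 8.64 against 7.74, 7.82 and 7.80, so every treated array lay below every control array. The means were 8.76 ± 0.16 and 7.79 ± 0.04 (SD, n = 3), a 1.96-fold fall (log2 difference -0.97 ± 0.15 SE, 95% interval -1.30 to -0.63; limma with Benjamini-Hochberg adjustment, adjusted p = 0.00761). A second, dimmer probe repeated this. It measured 7.42, 7.56 and 7.47 in the controls against 6.51, 6.48 and 6.51 after siP/CAF, a log2 difference of -0.98 ± 0.14 (SE; limma adjusted p = 0.00533). The remaining P4HA2 probe was detected on no array. Both calls held when any 1 array was left out (limma adjusted p up to 0.0479 and 0.0338) and under every other alternative tried. The paralog P4HA1, which encodes another form of that subunit, measured 10.45, 10.29 and 10.67 against 10.53, 10.56 and 10.36. Its groups overlapped and its log2 difference was 0.01, with a 95% interval of -0.34 to 0.37 (limma adjusted p = 0.983). The probes of these genes were not compared for level.

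The promoter windows of these paralogs are shown because their transcripts differed in response, with those of PGK1 and LDHA, textbook HIF targets, beside them. Each runs from 250 bases before to 50 bases after an annotated start (RefSeq, GRCh38.p14), written 5′ to 3′ on the gene's strand. Capitals mark each ACGTG or GCGTG on either strand (read as CACGT or CACGC on the other), the core letters of the hypoxia response element; CACGTG, a motif of MYC and BHLHE40, contains ACGTG. The windows lie at chr5:132227042-132227341 (P4HA2, minus strand), chr10:73096817-73097116 (P4HA1, minus strand), chrX:78103998-78104297 (PGK1, plus strand) and chr11:18394313-18394612 (LDHA, plus strand, the first of 2 starts).
P4HA2: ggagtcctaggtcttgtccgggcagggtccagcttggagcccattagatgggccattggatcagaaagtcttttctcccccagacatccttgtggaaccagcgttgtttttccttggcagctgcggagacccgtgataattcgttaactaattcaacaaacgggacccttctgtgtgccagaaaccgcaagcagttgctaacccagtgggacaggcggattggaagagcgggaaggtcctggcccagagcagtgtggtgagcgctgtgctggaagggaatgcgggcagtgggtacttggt
P4HA1: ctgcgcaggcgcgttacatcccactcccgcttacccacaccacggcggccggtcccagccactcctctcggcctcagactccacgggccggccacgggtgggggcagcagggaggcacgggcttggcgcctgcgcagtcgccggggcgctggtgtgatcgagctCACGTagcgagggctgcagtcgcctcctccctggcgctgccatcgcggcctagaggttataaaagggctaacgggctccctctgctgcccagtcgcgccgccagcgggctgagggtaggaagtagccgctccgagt
PGK1: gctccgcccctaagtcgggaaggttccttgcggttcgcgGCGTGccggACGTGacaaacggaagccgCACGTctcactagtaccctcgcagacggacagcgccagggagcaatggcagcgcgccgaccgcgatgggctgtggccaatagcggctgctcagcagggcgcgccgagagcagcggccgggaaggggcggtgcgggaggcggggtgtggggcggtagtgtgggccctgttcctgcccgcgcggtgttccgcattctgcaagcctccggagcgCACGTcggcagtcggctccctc
LDHA: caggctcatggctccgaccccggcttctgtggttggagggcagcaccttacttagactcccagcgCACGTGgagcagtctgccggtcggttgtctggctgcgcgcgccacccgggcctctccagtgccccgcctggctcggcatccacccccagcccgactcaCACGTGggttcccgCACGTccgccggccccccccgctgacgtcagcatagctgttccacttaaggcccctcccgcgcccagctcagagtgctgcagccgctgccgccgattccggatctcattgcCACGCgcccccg

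The P4HA2 window held 0 matches and the P4HA1 window 1 ACGTG. PGK1 had 3 ACGTG and 1 GCGTG, and LDHA had 5 ACGTG, of which 2 CACGTG sites account for 4 because that motif reads the same on both strands, and 1 GCGTG. The table held 60 windows for 35 of the 39 listed genes, CA9 included, and none for VEGFA, VHL, BNIP3L or NDRG1. Over these windows, 39 of 60 held ACGTG or GCGTG (65.0%), against 48.4% of all 35116 windows. ACGTG alone was in 26 (43.3%, against 21.4%), GCGTG in 21 (35.0%, against 36.5%) and CACGTG in 10 (16.7%, against 7.3%). Several windows belong to the same gene and can overlap, and a match in letters is not a binding site. A window without a match says nothing about elements outside it. Whether matches go with the response to siP/CAF was not tested.

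Of the 9 genes of glucose phosphorylation and upper glycolysis, none passed. Above 0 lay 7 and below it 2, with a median log2 difference of 0.11. Over all 11806 tested genes, 5703 lay above 0. The hexokinases trap glucose in the cell by phosphorylating it. HK2, the inducible isoform abundant in many tumours, measured 9.67, 9.27 and 9.28 on the log2 scale in the controls against 9.76, 9.88 and 9.82 after siP/CAF. All treated arrays lay above all controls, although control array 1 came close. Its log2 difference was 0.41 (95% interval 0.05 to 0.78; limma adjusted p = 0.197), and a dimmer HK2 probe, also without overlap, gave 0.36 (limma adjusted p = 0.224). HK1, the widely expressed isoform, measured -0.28 with an interval of -0.69 to 0.13. Its groups did not overlap either, but control array 1 (12.15) and siP/CAF array 2 (12.14) were nearly equal. The phosphofructokinase genes, whose enzyme commits sugar to glycolysis, gave -0.32 for the liver form PFKL, 0.02 for the muscle form PFKM and 0.11 for the platelet form PFKP. GPI, which isomerises glucose 6-phosphate, measured 0.02, the aldolases ALDOA and ALDOC 0.11 and 0.37, and TPI1, the triosephosphate isomerase, 0.15 without overlap. The ALDOC interval was the widest of these, -0.23 to 0.97.

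All 7 genes of lower glycolysis lay at or above 0, and none passed. ENO2, the enolase of neurons that many tumours also make, measured 9.15, 8.90 and 9.39 in the controls against 9.77, 9.55 and 9.50 on the log2 scale. The groups did not overlap, but control array 3 and siP/CAF array 3 were close. The log2 difference was 0.46 (95% interval 0.07 to 0.84; limma adjusted p = 0.176), and it passed only with array weights (0.57, limma adjusted p = 0.0278). The other enolases did not show this size: ENO1, the ubiquitous form, measured 0.04 and ENO3, the muscle form, 0.16. GAPDH, which yields NADH and is a common reference gene, measured 0.09 on its brightest probe (14.83, 14.75 and 14.76 against 14.90, 14.80 and 14.91 on the log2 scale) and 0.19 and 0.28 on dimmer ones. On those dimmer probes the groups did not overlap, and none of the 3 passed. The kinase PGK1 measured 0.03, the mutase PGAM1 0.04 and pyruvate kinase PKM 0.00, with an interval of -0.34 to 0.34. Dimmer probes gave 0.13 for PGK1, without overlap, -0.11 for PGAM1, and 0.14 and 0.28 for PKM. None of these passed. Over the 16 enzymes from hexokinase to pyruvate kinase, 14 lay above 0, and over all 11806 tested genes 5703 did. The median of the 16 was 0.07, and its uncertainty was not estimated. The enzymes were not tested as a set, and genes on the same arrays are not separate observations. Several of these genes, GAPDH among them, have processed pseudogenes, and whether the probes also read those was not checked.

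The enzymes at the fate of pyruvate and of the allosteric activator fructose-2,6-bisphosphate did not pass either. LDHA, the isoform that favours lactate production, measured 0.02 and LDHB 0.06, with intervals of -0.36 to 0.40 and -0.26 to 0.38. Dimmer LDHA probes gave -0.01 and 0.33, and neither passed. PDK1, a pyruvate dehydrogenase kinase and HIF target, measured 5.28, 5.39 and 5.44 in the controls against 4.86, 5.2 and 4.44 on the log2 scale. The groups did not overlap, but its probe was dim, with signals of 64.6 to 103, and was detected on 3 control arrays and 1 siP/CAF array. The probe met the detection filter only through the control arrays, where it was high, so filter and difference are not independent. PDK1 is among the lower members in the counts above without adjustment and without overlap. Its log2 difference was -0.54 (95% interval -0.98 to -0.09; limma adjusted p = 0.169). PDK3, another kinase of this family, measured -0.08. PFKFB3, which makes the activator and so speeds glycolysis, measured -0.09, and a dimmer probe 0.30. PFKFB4 measured 8.30, 8.62 and 8.98 against 8.46, 8.51 and 8.46, a log2 difference of -0.16, with the treated arrays inside the control range (limma adjusted p = 0.735). This sign turned without control array 3 (0.02).

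**Figure D2:**
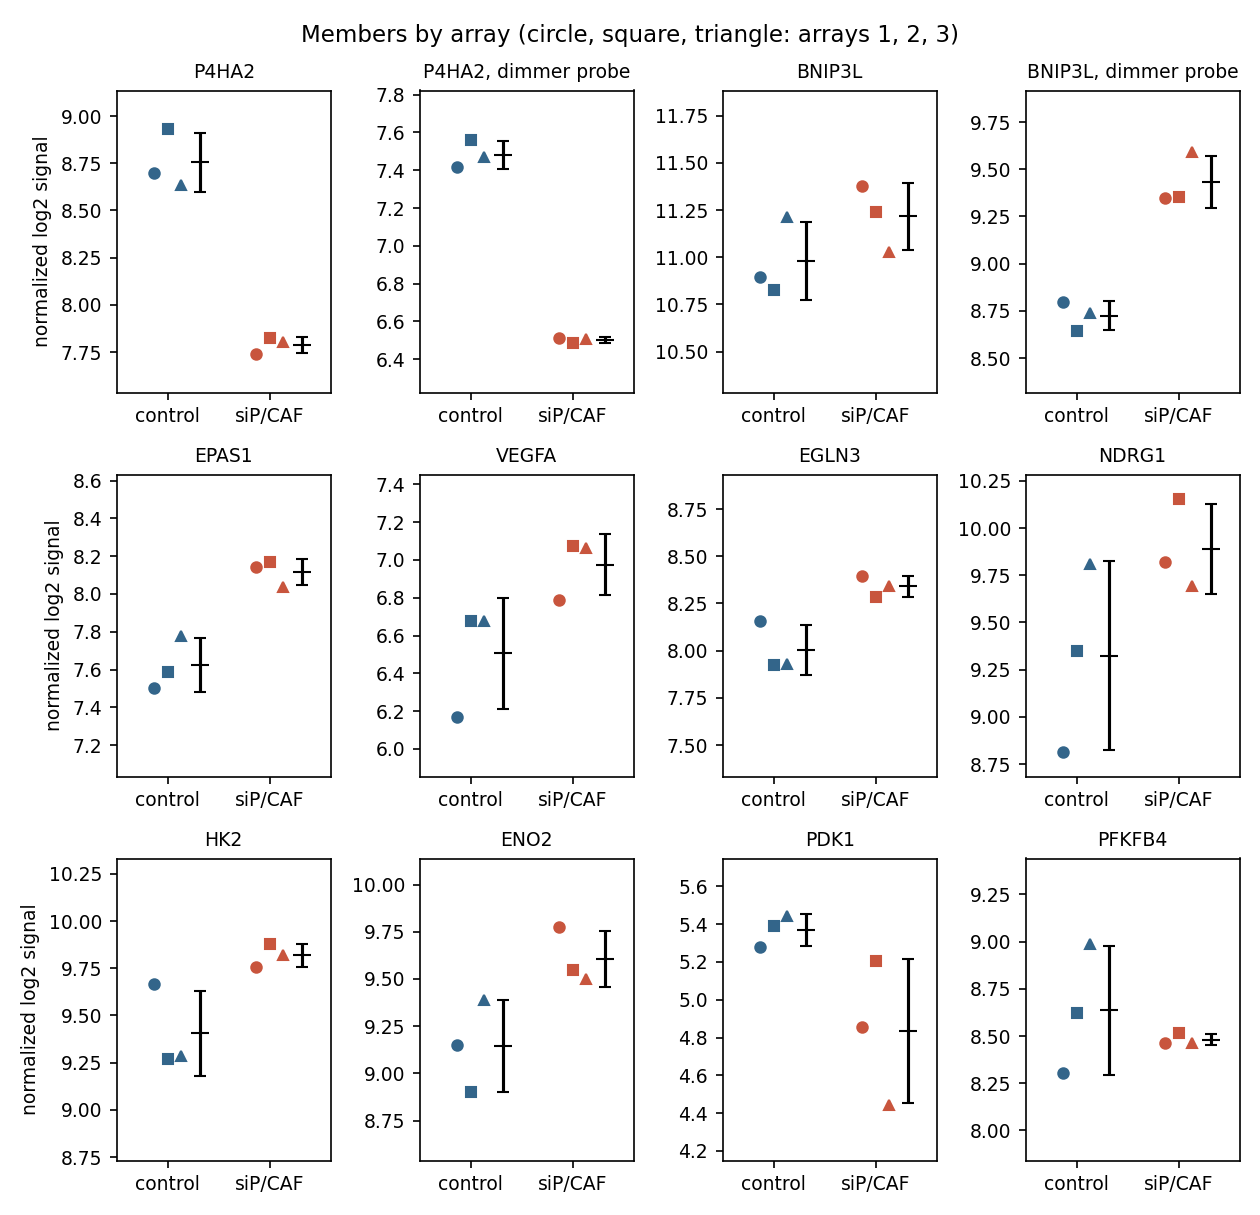
Normalized log2 signal on each array for the members named individually, with controls in blue and siP/CAF in red, arrays 1 to 3 as circle, square and triangle, and black bars for mean and SD over 3 arrays. The panels span at least 1.6 log2 units but have different origins, because levels of different probes are not comparable; in P4HA2 the groups are separated by far more than their spread, whereas in NDRG1 and PFKFB4 they overlap.

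Among the hypoxia-inducible factors EPAS1, the alpha subunit also called HIF2A, came nearest to the threshold. Its log2 levels of 7.50, 7.59 and 7.78 in control samples stood against 8.14, 8.17 and 8.04 in treated ones, without overlap. The difference was 0.49 (95% interval 0.16 to 0.83; limma adjusted p = 0.0979), and it passed with array weights (0.58, limma adjusted p = 0.0125). HIF1A, the subunit most linked to glycolytic targets, measured 10.64, 10.45 and 11.13 against 11.13, 11.21 and 10.74, and the groups overlapped. Its 3 probes gave log2 differences of 0.29, 0.21 and 0.45, none of which passed. ARNT, their common partner, measured -0.19 with an interval of -0.68 to 0.29.

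Of the 4 genes of oxygen sensing, none passed. EGLN3, a prolyl hydroxylase that HIF itself induces, measured 8.15, 7.92 and 7.93 in the controls against 8.39, 8.29 and 8.34 on the log2 scale. The groups did not overlap, and the log2 difference was 0.34 (95% interval 0.01 to 0.67; limma adjusted p = 0.247). EGLN1, the main oxygen sensor of most cells, measured 0.17 and EGLN2 -0.04. VHL, the substrate receptor of the ligase that destroys the alpha subunits, measured -0.18, -0.30 and -0.14 on its 3 probes; the groups were apart on the second of these only (limma adjusted p = 0.312).

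The 9 measured hypoxia response targets went both ways. Beside P4HA2, P4HA1 and the genes below, ANKRD37 measured -0.02, the circadian and hypoxia repressor BHLHE40 -0.15 and the lipoprotein lipase inhibitor ANGPTL4 -0.18. VEGFA, the angiogenic growth factor, measured 6.17, 6.68 and 6.68 in the controls against 6.79, 7.08 and 7.06 on the log2 scale. The groups did not overlap, control array 1 was lowest, and the log2 difference was 0.47 (95% interval 0.06 to 0.88; limma adjusted p = 0.199). A dimmer VEGFA probe, near background with signals of 85.5 to 101.2, gave -0.02. NDRG1, a hypoxia- and stress-induced gene, had the highest difference of all members at 0.57, but its arrays ran from 8.81 to 9.81 in the controls and from 9.69 to 10.16 after siP/CAF. These ranges overlapped, control array 3 being the high one, and the 95% interval was 0.02 to 1.11 (limma adjusted p = 0.246). Without control array 3 it measured 0.81 (limma adjusted p = 0.0689) and without control array 1 it measured 0.31. On the 4 arrays numbered 1 and 2, with the replicate number as a block, it measured 0.91 and passed (limma adjusted p = 0.0436), and it passed with array weights (0.84, limma adjusted p = 0.0217).

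The mitophagy receptor genes BNIP3 and BNIP3L, both induced by HIF, lay above 0. BNIP3 measured 0.26 without overlap (limma adjusted p = 0.418). The brightest BNIP3L probe read 10.90, 10.83 and 11.21 in the controls against 11.38, 11.24 and 11.03, overlapping, with a log2 difference of 0.24 (95% interval -0.14 to 0.62; limma adjusted p = 0.523). Its dimmer probe read 8.79, 8.64 and 8.74 against 9.35, 9.36 and 9.59, all treated arrays above all controls, and rose by 0.71 ± 0.15 (SE; limma adjusted p = 0.0285). That call was lost when any array except control array 3 was left out (limma adjusted p up to 0.101, without siP/CAF array 1), under median scaling, and on the 4 arrays numbered 1 and 2 with or without the replicate block, 8 of 16 alternatives in all. Which BNIP3L transcripts each probe reads was not examined.

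Probes of a gene mostly lay on the same side of 0. Of the 18 members with 2 or more tested probes, all probes of 13 shared a sign, and those of PFKP, PGAM1, LDHA, PFKFB3 and VEGFA did not. The dimmer probes of VEGFA (signals 85.5 to 101.2) and PFKP (70.1 to 104.3) lay near background. The LDHA probe below 0 gave only -0.01. The spread of the log2 difference between a gene's probes had a median of 0.16 and reached 0.49, for VEGFA. P4HA2 had the smallest, 0.01. Of the 11 member probes that were not tested, 9 were detected on no array and 2 on 1 array.

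**Figure D3:**
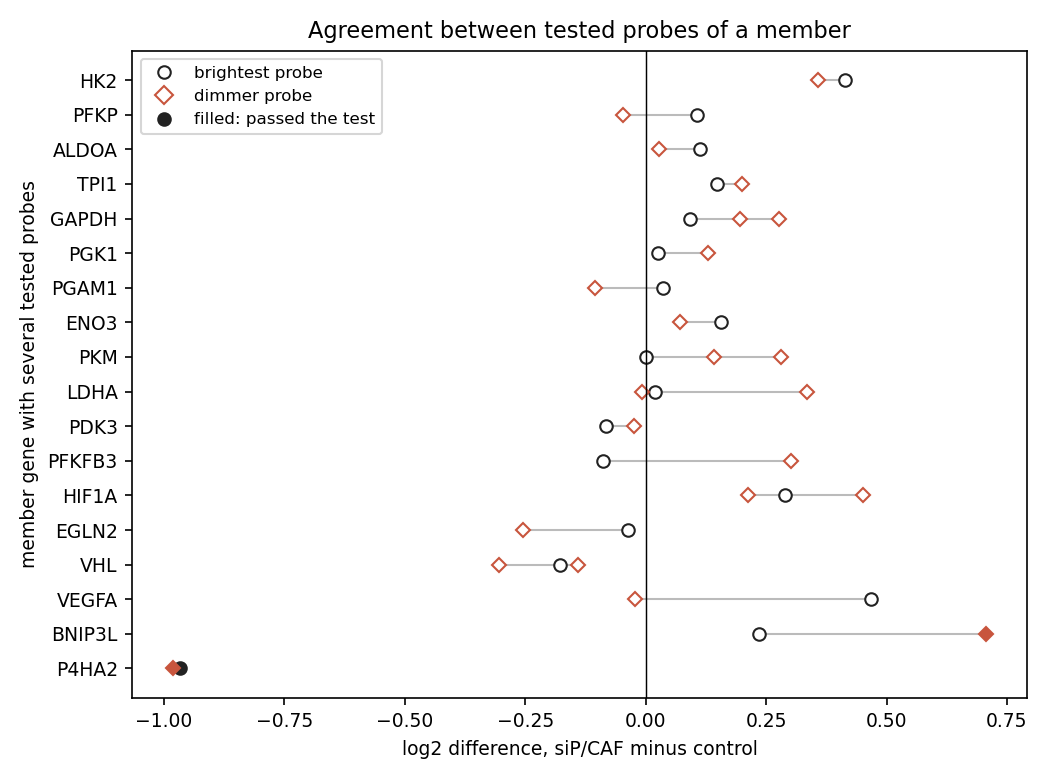
Log2 difference between siP/CAF and control for every tested probe of the 18 members with several, circles for the brightest probe and diamonds for dimmer ones, filled where the probe passed the test. The P4HA2 probes coincide near -1, and those of VEGFA (0.47 and -0.02) and BNIP3L (0.24 and 0.71) are farthest apart. The dimmer VEGFA probe lies near background.

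A wider list of 103 genes of glucose use and the hypoxia response was read from the same fit, of which 76 were tested. In it 6 genes rose and 4 fell, 13.2% against the 5.37% of all genes, with a median log2 difference of 0.04. The 6 include ARNT2, whose probe entered the test only through the siP/CAF arrays. The list was drawn up with earlier results of these data known, in which LOX was already named, so its share is not independent evidence. None of the 6 tested genes of glucose and lactate transport passed. The glucose transporter gene SLC2A1 (GLUT1), a textbook HIF target, measured 10.90, 10.92 and 11.10 against 11.44, 11.44 and 11.21 on the log2 scale, a difference of 0.39 without overlap (limma adjusted p = 0.198). SLC2A6, a lysosomal sugar transporter gene, measured 0.61 (limma adjusted p = 0.0846). PGM2, a phosphoglucomutase, rose by 0.76, the 1 call among 7 further glycolytic isoenzymes and regulators, where BPGM measured 0.45. Of 9 genes of mitochondrial pyruvate import and of pyruvate dehydrogenase and its regulators none passed. PDHB and PDHX, subunits of the pyruvate dehydrogenase complex, measured 0.37 and 0.29.

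PGD, the 6-phosphogluconate dehydrogenase of the pentose phosphate pathway, fell. It measured 12.74, 12.48 and 12.67 in the controls against 11.90, 11.96 and 11.84 on the log2 scale, a difference of -0.73 ± 0.15 (SE; limma adjusted p = 0.0247). It was the only one of 6 tested genes of that pathway to pass. Below 0 lay 5 of the 6, and 6103 of all 11806 tested genes. RPIA measured 0.25. Of 6 glycogen genes none passed. The phosphorylase PYGB measured 11.17, 11.28 and 12.03 against 10.68, 10.65 and 10.44, a difference of -0.90 (limma adjusted p = 0.0528) with control array 3 far above the other controls. It passed in 8 of 17 alternatives, those without background correction and with median scaling among them, and in none that left out an array; without control array 3 it measured -0.63. Its paralog PYGL measured 0.43. Of 9 further components of the HIF pathway 1 rose. ARNT2, a paralog of ARNT found mainly in nervous tissue, was detected on no control array and on all 3 siP/CAF arrays. Its probe met the detection filter only through the siP/CAF arrays, where it was high, so filter and call are not independent. It passed also without the filter on dim probes. ARNT2 measured higher after siP/CAF (limma adjusted p = 0.0102), but the size depended on the background correction. The log2 difference was 0.96 with that correction and 0.46 without. Its signals ran from 73.7 to 95 in controls and from 113.3 to 122.5 in treated samples, near background. CITED2, which competes with HIF for its coactivators, measured 0.51 (limma adjusted p = 0.0805).

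The largest changes in the wider list were among 39 further reported hypoxia targets, of which 4 rose and 3 fell. That is 17.9%, against 5.37% of all genes (2.28% higher, 3.09% lower). These targets too were listed with earlier results of these data known, so the share is not independent evidence. ADM, which encodes the vasodilator peptide adrenomedullin, gave log2 levels of 7.54, 7.72 and 7.59 in control samples against 9.25, 9.12 and 9.51 in treated ones. The groups were far apart, and the rise was 3.20-fold (log2 difference 1.68 ± 0.16 SE; limma adjusted p = 6.36e-04). LOX, the collagen cross-linking enzyme, rose from 6.88, 6.93 and 7.13 to 8.96, 8.86 and 8.89, a 3.79-fold rise (log2 difference 1.92 ± 0.15 SE; limma adjusted p = 1.74e-04). STC2, a secreted glycoprotein of stress, rose by 0.86 and EFNA1, a ligand of Eph receptors, by 0.80. DDIT4, an inhibitor of mTORC1 that stress induces, fell by 0.72, the transcription factor gene ZNF395 by 0.68 and the orphan nuclear receptor gene RORA by 0.84. A dimmer probe of MAFF, a small MAF factor, rose by 0.73 against 0.42 on its brightest.

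**Figure D4:**
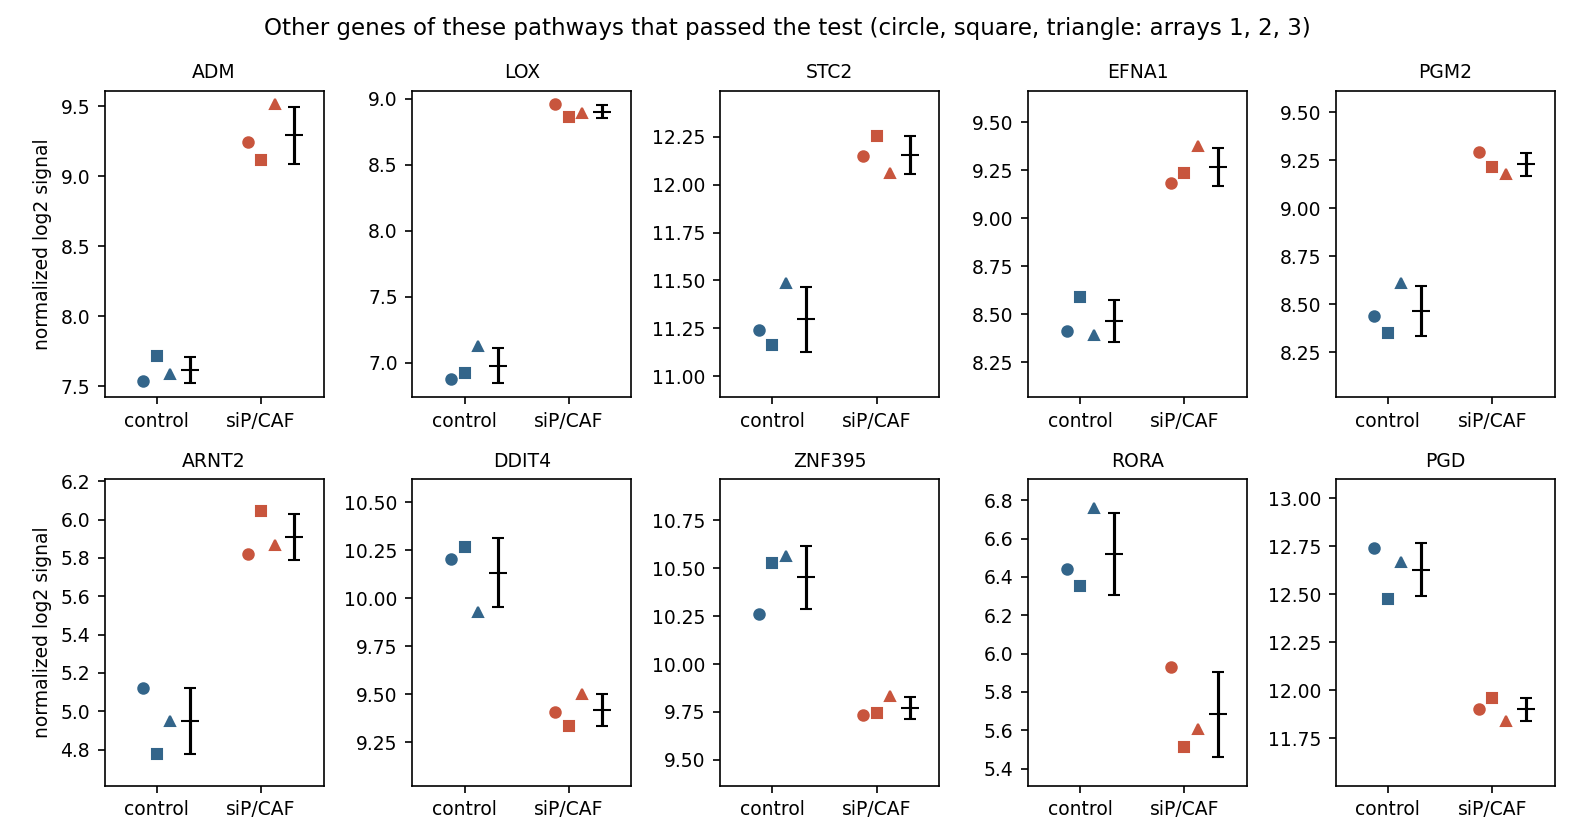
Normalized log2 signal on each array for the 10 genes of the wider list that passed the test, controls in blue and siP/CAF in red, with mean and SD over 3 arrays in black. In every panel the 3 siP/CAF arrays lie on 1 side of the 3 controls, and the gap is widest in LOX (1.92) and ADM (1.68). ARNT2 met the detection filter only through the siP/CAF arrays.

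These calls differed in how far they rested on single arrays. ADM and LOX passed when any 1 array was left out, and of these leave-outs ARNT2 lost its call only without siP/CAF array 2 (limma adjusted p = 0.0517). The detection filter of the full fit was kept in them, so ARNT2 stayed in through the siP/CAF arrays alone. STC2 kept its call without control array 3 or siP/CAF array 3, EFNA1 and PGD without control array 2 or 3, PGM2 and DDIT4 without control array 3, and RORA without control array 2. ZNF395 and the dimmer MAFF probe lost theirs whichever array was left out (limma adjusted p as high as 0.149 for ZNF395 and 0.144 for MAFF, each in the absence of siP/CAF array 1). RORA also lost its call without background correction (-0.46, limma adjusted p = 0.0566), with the authors' series matrix values and without the filter on dim probes, and PGM2 under median scaling (0.67, limma adjusted p = 0.0681). The dimmer MAFF probe lost its call under median scaling and without the filter. On the 4 arrays numbered 1 and 2, PGD, ZNF395, RORA and the dimmer MAFF probe did not pass with or without the replicate block, and EFNA1 and ARNT2 did not pass with it.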

How the data were processed

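The members and gene lists were chosen with earlier results of these data known. The deposited non-normalized table gives a linear intensity (mean bead signal) for each probe on each array, per the file headers. It also gives a score headed as a p-value, which rises with the signal and was therefore read as 1 minus the detection p. The deposited series matrix holds log2 values centred on each probe's median (column medians 0; r with the centred log2 signals 0.933 to 0.970, slopes 0.850 to 1.07); its normalization and direction are not stated, the direction following from the positive slopes, and it served as an alternative. The sources used here name no software behind the tables.

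Signals were corrected by normexp with detection p-values, given an offset of 16, quantile normalized and log2 transformed (neqc, limma 3.58.1, R 4.3.3); the offset understates changes of dim probes. The test took the 21232 of 47323 probes that 3 or more arrays detected (detection p under 0.05), with limma (lmFit, eBayes) and no block. The p-values were adjusted over these probes (Benjamini-Hochberg). The procedure was also run on simulated data. Their noise was drawn independently for each probe and array, so that run does not cover variation that probes or arrays share. Probes were named from the platform annotation: 30113 had 1 symbol, 8 several and 17202 none here, and 30074 matched the gene table of GRCh38.p14 by gene identifier.

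Named individually are members that passed on any tested probe, had an unadjusted p under 0.05, had the smallest p of their role group, or whose probes differed in call or by over 1 in log2 difference; the other 28 are given by role, between -0.32 and 0.37. Of the wider list, genes that passed and the 2 smallest p per list are named. The number of arrays limits the precision.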

Additional observations from a re-analysis of the deposited data

How the results depend on the processing

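The fall of P4HA2 kept its direction and its call under all 17 alternatives, with log2 differences from -1.05 to -0.81, and so did KAT2B (-2.91 to -2.26), ADM and LOX. The count of member genes that passed was 1 in every alternative but array weights (4: NDRG1, ENO2, P4HA2 and EPAS1) and the replicate block (2: NDRG1 and P4HA2). Leaving out 1 array gave 1 member gene each time, 2 to 3 member probes, a member median of 0.02 to 0.09, 2 to 10 genes of the wider list (10 in the fit reported) and 209 to 703 of all genes (634 in the fit reported). The lowest counts came without siP/CAF array 2 for the wider list and siP/CAF array 1 for all genes. Array weights gave 6 member probes, 21 genes of the wider list and 1748 of all genes. Only the titles of arrays 1 and 2 share a number between the groups, and their deviations from the group means correlated at -0.15 and -0.41, so the numbers were not taken to pair the samples. Over all pairs across the groups the correlation ran from -0.56 (control 3, siP/CAF 3) to 0.48 (control 2, siP/CAF 3). Deviations within a group offset each other, so these values are not independent. Variation shared by arrays across the groups was not modelled. On those 4 arrays the replicate block gave 5 genes of the wider list and a member median of 0.10; without the block, chosen after seeing the data, the median on the same arrays was 0.10 and 1 member gene passed. PFKFB4 turned to 0.0250 with and without that block and to 0.0138 with array weights; leaving out 1 array gave -0.3248 to 0.0168, the latter without control array 3; the cause was not tested. Median scaling shifted the median of all genes to -0.06. No slide was named in the files, so slide could not be used as a block. Dim probes, PDK1 and ARNT2 among them, lie near background, where the offset and the correction set the size.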
